A study of Mus musculus with 6 samples.

Results

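Galectins are small lectins that bind galactose-containing sugars, above all N-acetyllactosamine, on glycoproteins. They lack a signal peptide, act in the cytosol and nucleus, and reach the cell surface and the extracellular space by an unconventional route, where they cross-link receptors and, at damaged vesicles, mark sugars that have become exposed to the cytosol. Galectin-1 is known for inducing death or silencing of activated T cells and galectin-3 is an abundant macrophage product, so both are studied in tumor-associated macrophages (TAMs), the macrophages found within a tumor.

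The genes described here were Lgals1, Lgals3, Lgals8, Lgals9 and Lgals3bp, 5 of the 22377 genes in the deposited count table, taken by symbol. They were selected by the comparison of wt and ko libraries in earlier work on these files, so every difference between those groups is given as a description of the 5 genes and without a test. The tumors were raised under the skin from LLC, a mouse line of Lewis lung carcinoma. Per the study's methods, CD45+ CD11b+ F4/80+ cells were sorted from tumors that grew in Npm1+/+ or Npm1+/- hosts of both sexes. Npm1+/- is a heterozygous loss of nucleophosmin that all host cells carry, not macrophages alone, while the implanted tumor cells have their own Npm1. The 6 libraries comprised 3 labelled wt and 3 labelled ko or knockdown, and the labels name no allele, age or sex of single mice and do not say whether mice were pooled. Fewer individual mice are stated for a heatmap of this experiment than there are libraries in a group, so n below counts libraries, which may not each be a separate mouse. The labels describe the material as whole tumor extracted with TRIzol and prepared by a small RNA protocol, which differs from the sort and the SMARTer cDNA synthesis in the study's methods.

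Total counts lay between 36550775 and 38147320 per library, and 13884 genes passed edgeR's filter on low counts, all 5 members among them. Levels are given as CPM, the counts scaled to library size with TMM factors, or, for comparison between genes, as FPKM, which also divides by gene length. Npm1, the targeted gene, was not lower in the ko libraries, with 142, 380.2 and 381 CPM in wt replicates 1 to 3 and 441, 499 and 343 CPM in ko replicates 1 to 3, so each direction below is that between libraries as labelled. Ccrl2, the chemokine-binding receptor that the study followed, was at 831 to 1494 CPM in wt and 471 to 783 CPM in ko. wt replicate 1 stood apart on the first principal component, at -108 against -4.54 to 52.0 for the other 5 libraries. The summed macrophage list was 10506 to 13446 CPM in wt and 6261 to 10899 CPM in ko libraries. The largest sum was 722 CPM for fibroblast, 320 CPM for T and NK cell and 192 CPM for epithelial or carcinoma markers. Neutrophil markers summed to 1694 to 1897 CPM in wt and 731 to 1478 CPM in ko libraries. Over all genes, edgeR's quasi-likelihood F-test, Benjamini-Hochberg adjusted, called 0 of 13884 genes, with 2112 at an unadjusted p under 0.05, and DESeq2 called 36.

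The promoters of Lgals9 and Lgals3bp are shown because both genes are known as interferon-induced and both had lower values in the ko libraries. RefSeq windows of GRCm38.p6, from 250 bases before to 50 bases after the annotated start, were matched by gene number for 4 of the 5 members, Lgals3, Lgals3bp, Lgals8 and Lgals9. They were searched on both strands for the core of the interferon-stimulated response element, GAAA followed after 2 bases of any kind by GAAA, and for TTCNNNGAA, the core of a STAT site. The first was present in 3.44% of all 32851 windows and the second in 8.30%. Lgals9, at chr11:78984925-78985174 on the minus strand, held the first motif at 55 bases before its start, in capitals below, and again 16 bases after it, shown as a stretch of 30 bases at chr11:78984890-78984919.
Lgals9 before the start: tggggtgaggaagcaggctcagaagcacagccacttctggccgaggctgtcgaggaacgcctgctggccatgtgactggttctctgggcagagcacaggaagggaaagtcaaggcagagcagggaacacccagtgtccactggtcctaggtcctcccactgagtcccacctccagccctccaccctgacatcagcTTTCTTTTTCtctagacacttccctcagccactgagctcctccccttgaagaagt
Lgals9 after the start: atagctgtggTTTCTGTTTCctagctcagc
Lgals3bp, at chr11:118401960-118402209 on the minus strand, held neither motif exactly. The capitals below mark a stretch 16 bases before the start that differs from the response element core at 1 letter, a search added after the sequences were seen, and such a near match occurred in 35.4% of all windows.
Lgals3bp before the start: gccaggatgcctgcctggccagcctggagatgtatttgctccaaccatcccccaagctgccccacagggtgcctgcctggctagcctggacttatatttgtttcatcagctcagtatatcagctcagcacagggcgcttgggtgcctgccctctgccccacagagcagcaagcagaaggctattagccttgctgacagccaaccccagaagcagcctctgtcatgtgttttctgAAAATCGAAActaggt
The windows of Lgals3 and Lgals8 held neither motif, also with 1 letter changed in the first. Only 1 start was searched per gene. The bases before it, chr14:47373610-47373859 for Lgals3 and chr13:12461739-12461988 for Lgals8, lie inside the gene spans given below, whose outer ends were not searched. Those of Lgals3bp and Lgals9 lie partly inside their gene spans, which reach to 118402092 and 78984946. The near match of Lgals3bp lies inside its gene span. A match describes the letters of these windows and does not show that a factor binds there.

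Per length, the galectin message of these libraries was dominated by Lgals3 and Lgals1. Lgals3 had a mean of 1053 FPKM over the 6 libraries and ranked 56 among all 22377 genes, and Lgals1 had a mean of 847 FPKM and ranked 90. Galectin-9, encoded by Lgals9, which binds TIM-3 and carries a pair of sugar-binding domains in 1 chain, followed at 66.4 FPKM. Lgals3bp, which encodes a secreted glycoprotein with a scavenger receptor domain that binds galectin-3 and has no galectin fold itself, stood at 39.3 FPKM. Lgals8, whose product also has a pair of sugar-binding domains and recruits autophagy adaptors to damaged vesicles, stood at 27.7 FPKM. Lgals9 exceeded Lgals3bp, and Lgals3bp exceeded Lgals8, in each of the 6 libraries, although the ranges of Lgals3bp, 29.4 to 55.3 FPKM, and Lgals8, 23.7 to 30.8 FPKM, overlapped.

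The order of the leading pair was not the same in all libraries. Lgals1 was at 534, 892 and 674 FPKM in wt replicates 1 to 3 and at 1063, 1077 and 841 FPKM in ko replicates 1 to 3. Lgals3 was at 1178, 1231 and 1057 FPKM in the wt libraries and at 965, 889 and 996 FPKM in the ko libraries. Lgals3 thus exceeded Lgals1 in 4 libraries, and Lgals1 exceeded Lgals3 in ko replicates 1 and 2. The ratio of Lgals1 to Lgals3 within a library, which no scaling between libraries can alter, was 0.453, 0.725 and 0.638 in wt replicates 1 to 3 and 1.10, 1.21 and 0.845 in ko replicates 1 to 3. Its mean was 0.605 ± 0.139 (SD, n = 3) in wt and 1.05 ± 0.188 (SD, n = 3) in ko, and the groups did not overlap. The genes were chosen with this comparison known, and the share of gene pairs whose ratio separates in this way was not computed. Summed over the 4 galectins, the level was 1958 ± 228 FPKM (SD, n = 3) in wt and 2029 ± 92.4 FPKM (SD, n = 3) in ko, a difference within the spread between replicates. FPKM carries no TMM factors, which were 0.933 to 0.983 in wt and 0.969 to 1.15 in ko, so the direction of that difference can depend on the scaling. The share of Lgals1 in that sum, which scaling cannot alter, was 35.4% ± 5.57 (SD, n = 3) in wt and 48.9% ± 4.74 (SD, n = 3) in ko.

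**Figure D1:**
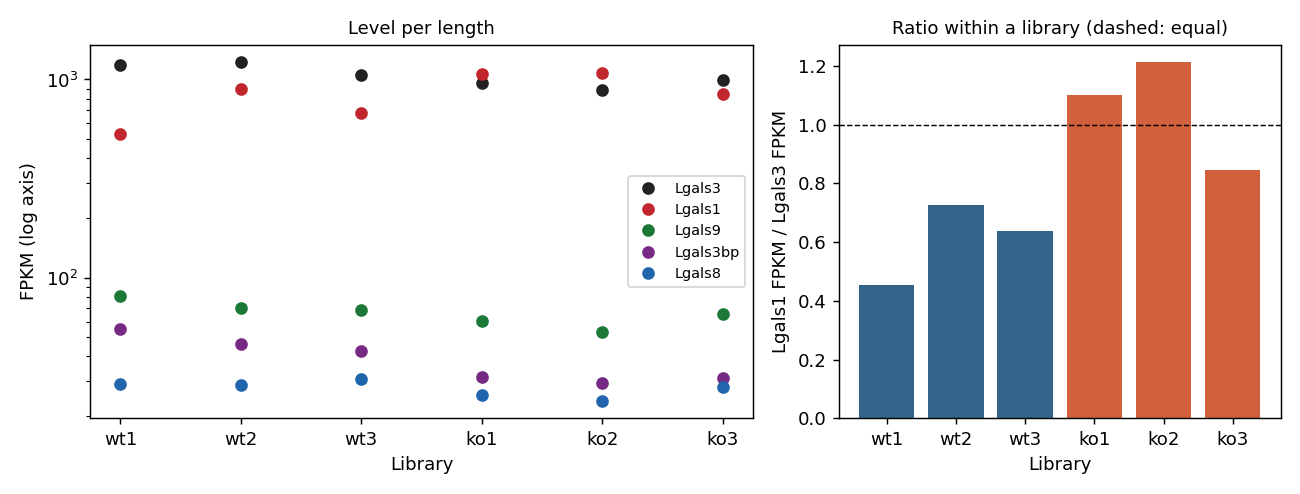
The left panel plots the FPKM of the 5 genes in each library on a log axis, and the right panel the ratio of Lgals1 to Lgals3 FPKM in each library, with a dashed line where they are equal. The ratio is at most 0.725 in the wt libraries and at least 0.845 in the ko libraries, and only ko1 and ko2 lie above the dashed line.

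In GENCODE M21 on GRCm38, Lgals1 (NCBI Gene 16852) spans bases 78926725 to 78930465 of chromosome 15, on the plus strand, and shares no bases with another annotated gene. It encodes galectin-1, a family member with a single sugar-binding domain that forms dimers. Its level was 458, 765 and 549 CPM in wt replicates 1 to 3 and 809.8, 752 and 695 CPM in ko replicates 1 to 3. wt replicate 2 reached the range of the ko libraries, so the groups overlapped, and wt replicate 1 was the lowest of all. The mean was 590.5 ± 158 CPM (SD, n = 3) in wt and 752 ± 57.7 CPM (SD, n = 3) in ko, with a log2 fold change of 0.35 (standard error 0.20). It was 0.19 (standard error 0.18) without wt replicate 1 and 0.57 (standard error 0.17) without wt replicate 2. The annotation holds 2 processed pseudogenes of Lgals1 that have no row in the count table, and it is not stated how reads matching them were counted.

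Lgals3 (NCBI Gene 16854) lies on chromosome 14 from 47367751 to 47386160 on the plus strand, also with no overlapping gene. Galectin-3 joins a single sugar-binding domain to a flexible tail through which it forms oligomers, and it is widely used as a marker of macrophages. Its level was 1776, 1855 and 1512 CPM in wt replicates 1 to 3 and 1292, 1091 and 1445 CPM in ko replicates 1 to 3. Every ko library lay below every wt library, but the lowest wt library was only 1.05 times the highest ko library. The mean was 1714 ± 179.7 CPM (SD, n = 3) in wt and 1276 ± 178 CPM (SD, n = 3) in ko, with a log2 fold change of -0.43 (standard error 0.16).

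Lgals3bp (NCBI Gene 19039) lies on chromosome 11 from 118392751 to 118402092 on the minus strand, with no overlapping gene. Its level was 136, 114 and 99.5 CPM in wt replicates 1 to 3 and 68.8, 58.9 and 73.9 CPM in ko replicates 1 to 3. The lowest wt library was 1.35 times the highest ko library, the widest gap among the 5 genes. The mean was 117 ± 18.6 CPM (SD, n = 3) in wt and 67.2 ± 7.65 CPM (SD, n = 3) in ko. The log2 fold change came to -0.79 (standard error 0.15), or -0.67 (standard error 0.14) without wt replicate 1. Within a library, the ratio of Lgals3bp to Lgals9 FPKM, both lower in ko, was 0.655 ± 0.0302 (SD, n = 3) in wt and 0.516 ± 0.0388 (SD, n = 3) in ko, without overlap. Both genes were chosen with this comparison known, and the share of gene pairs whose ratio did not overlap was not computed. The ratio of Lgals3 to Lgals3bp FPKM was 24.3 ± 2.70 (SD, n = 3) in wt and 31.0 ± 0.871 (SD, n = 3) in ko.

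Lgals9 (NCBI Gene 16859) lies on chromosome 11 from 78962974 to 78984946 on the minus strand, with no overlapping gene. Its level was 138, 119 and 110.3 CPM in wt replicates 1 to 3 and 91.1, 73.6 and 107 CPM in ko replicates 1 to 3. ko replicate 3 came close to wt replicate 3, and the groups were separated by a factor of 1.03. The mean was 122 ± 14.1 CPM (SD, n = 3) in wt and 90.7 ± 16.9 CPM (SD, n = 3) in ko, with a log2 fold change of -0.43 (standard error 0.17).

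Lgals8 (NCBI Gene 56048) lies on chromosome 13 from 12439415 to 12464944 on the minus strand. Its level was 96.6, 95.6 and 97.2 CPM in wt replicates 1 to 3, the least spread of any member, and 75.7, 64.2 and 89.6 CPM in ko replicates 1 to 3. The groups were separated by a factor of 1.07, and the log2 fold change came to -0.33 (standard error 0.14). Heatr1, a ribosome biogenesis gene on the opposite strand, shares 155 of the 3688 exon bases of Lgals8. Heatr1 itself had a log2 fold change of -0.25 (standard error 0.13), and since the sources do not give the strand setting of the counting, reads from the shared bases cannot be told apart.

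**Figure D2:**
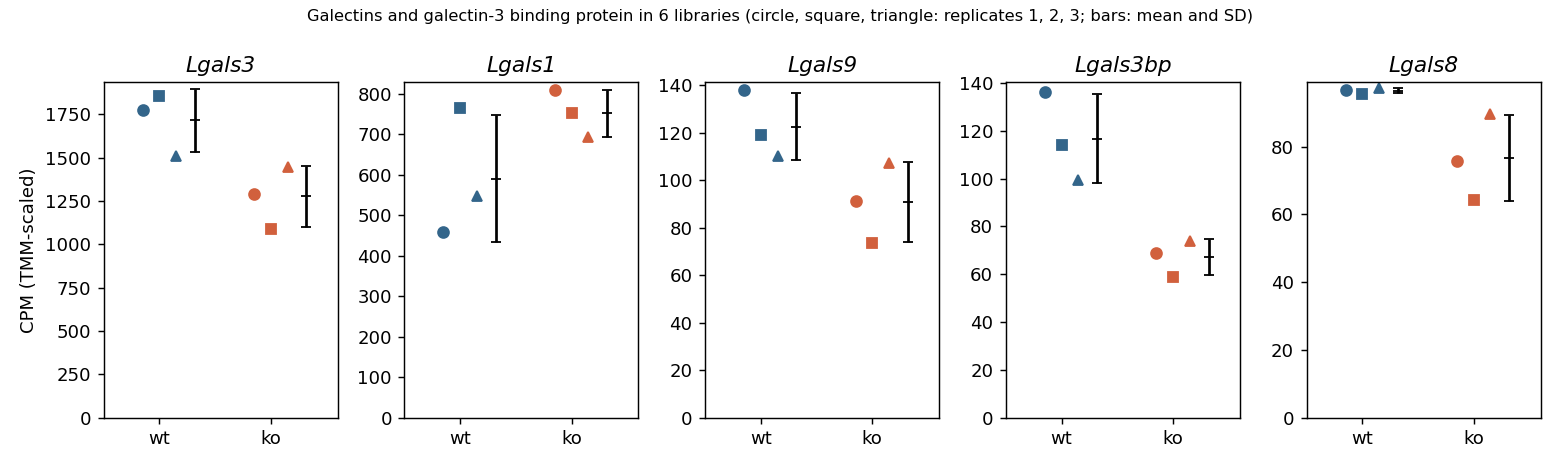
Each panel plots the CPM of 1 gene in the 3 wt (blue) and 3 ko (orange) libraries, with circles, squares and triangles for replicates 1, 2 and 3 and bars for the mean and SD of each group. In Lgals3, Lgals9, Lgals3bp and Lgals8 the ko points lie below all wt points, with the widest gap in Lgals3bp, while in Lgals1 the second wt library lies among the ko libraries.

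Of the 5 genes, 4 did not overlap between the groups and were lower in ko, beside 12.6% of all genes tested. Of the 5, 0 did so in the other direction, beside 13.3%. Without wt replicate 1 the same 4 genes were lower without overlap, beside 15.2% of all genes, and without ko replicate 3 as well, beside 26.3%. The median log2 fold change was -0.43 over the 5 genes and 0.02 over all genes tested. edgeR called 0 of the 5 genes, as it called 0% of all genes. DESeq2 called 1, Lgals3bp, beside 0.263% of all genes, and without wt replicate 1 and ko replicate 3 it called 4, Lgals3, Lgals3bp, Lgals8 and Lgals9, beside 10.6%. Because the genes were chosen with this comparison known, these counts are not evidence of a difference.

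The 4 lower genes also varied together. Over the 6 libraries, Pearson's r of log2 CPM between pairs of Lgals3, Lgals3bp, Lgals8 and Lgals9 was 0.857 to 0.95, and r between Lgals1 and these 4 was -0.706 to -0.479. These are descriptions over 6 libraries that share the group labels and their make-up of cells. Genes with at least 10 CPM whose pattern was most like each member were named by the highest r among 8091 genes. For Lgals3bp they were Dhx58, an interferon-induced helicase related to RIG-I, at r = 0.9987, Pcif1, a cap methyltransferase, at 0.9984, and Eif4ebp2, a repressor of translation initiation, at 0.9963. For Lgals9 they were Tgfbi at r = 0.999, Nsf, a vesicle fusion ATPase, at 0.999, and Itgb2, the leukocyte integrin beta chain, at 0.9989. For Lgals3 they were Serp1 at r = 0.9977, Rab7, a late endosomal GTPase, at 0.9957, and Gabarapl2, an autophagosome protein, at 0.9942. For Lgals8 they were Bnip2 at 0.9985, Ms4a8a at 0.9984 and F13a1, the A subunit of coagulation factor XIII, at 0.9981. For Lgals1 they were Mgat4b, an enzyme that branches the N-glycans which galectins bind, at 0.9964, Cd151, a tetraspanin, at 0.9964, and Cdk4, a cell cycle kinase, at 0.9932. With 6 libraries many genes reach such values, and 127 to 760 genes per member had r over 0.95.

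Macrophage markers also had lower estimates in the ko libraries. In bulk RNA, fewer cells of a type and less RNA per cell cannot be told apart. All 10 genes of the macrophage list had a negative log2 fold change, with a median of -0.50, and 6 of them were lower without overlap, beside 12.6% of all genes. The largest part of its sum was Cd14, at 5318 to 7870 CPM in wt and 3395 to 6016 CPM in ko, with overlap. Itgam followed, at 2708 to 2975 CPM in wt and 1492 to 2660 CPM in ko. Together they made up most of the sum in each library. Set against the summed counts of this list, Lgals3 stood at 155, 138 and 144 counts per 1000 in wt replicates 1 to 3. In ko replicates 1 to 3 it stood at 151, 174 and 133. On that scale the mean log2 difference turned to 0.061 for Lgals3, 0.14 for Lgals8 and 0.048 for Lgals9, and was -0.30 for Lgals3bp, while the median of all genes moved to 0.52. Each of these 4 differences was thus below that of the median gene, and in Lgals3bp, at 11.9, 8.48 and 9.47 per 1000 in wt and 8.07, 9.40 and 6.78 in ko, the groups then overlapped. On that scale Lgals1 stood at 40.0, 56.9 and 52.2 per 1000 in wt and 95.0, 120.1 and 63.7 in ko. Its groups did not overlap, but the share of all genes without overlap on that scale was not computed. The mean log2 difference of Lgals1 was 0.87, beside 0.52 for the median gene.

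Lgals1 is also known from fibroblasts and carcinoma cells, whose markers were summed in the same way. The summed fibroblast list was 44.3, 502 and 313 CPM in wt replicates 1 to 3 and 722, 621 and 375 CPM in ko replicates 1 to 3. The estimates of 9 of its 10 genes were higher in ko. Without overlap, 1, Fap, was higher and 1, Acta2, was lower, beside 13.3% and 12.6% of all genes. Col3a1 gave 19.0 CPM in wt replicate 1 and 245 to 604 CPM in the other libraries, so the range of the sum mostly followed that of this gene. Over the 6 libraries, Lgals1 had r = 0.921 with this sum and r = 0.974 with that of the epithelial or carcinoma list. The latter sum was 36.1 to 138 CPM in wt and 129 to 192 CPM in ko. Krt8 gave 9.90 CPM of it in wt replicate 1 and 59.1 to 171 CPM in the other libraries, so the range of the sum followed that of this 1 gene. Of the 4 epithelial genes tested, Krt8 and Krt18 had positive log2 fold changes of 1.25 and 0.76, and Cdh1 and Krt7 negative ones of -0.41 and -1.03, with Krt7 lower without overlap. The list held Krt19, Cldn4 and Sftpc at 0 or 1 count in every library and Epcam at 2 to 30 counts. High r of Lgals1 was not limited to cell markers. It was 0.938 with the summed other galectin genes and 0.877 with the summed genes of damaged vesicles, both named below. wt replicate 1 was lowest in the fibroblast and the epithelial or carcinoma sum and in Lgals1. The part of these cells in the level of Lgals1 was not tested.

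The interferon, T and NK cell and neutrophil lists also had estimates on 1 side. The B cell list did not, with 3 higher and 2 lower estimates in ko and a median log2 fold change of 4.5e-04. All 15 interferon-stimulated genes tested had a negative log2 fold change, with a median of -0.33, 5 were lower without overlap beside 12.6% of all genes, and their summed level was 1505 to 2084 CPM in wt and 1326 to 1465 CPM in ko. The T and NK cell list was 52.5 to 136 CPM in wt and 112 to 320.0 CPM in ko. All 10 of its genes had a positive log2 fold change, and 1, Cd3d, was higher without overlap, beside 13.3% of all genes. With the interferon sum, r was 0.63 for Lgals3bp, 0.55 for Lgals9, 0.744 for Lgals3, 0.698 for Lgals8 and -0.048 for Lgals1. Lgals3bp had r = 0.814 with the macrophage sum. Lgals3 had r = 0.957 with the macrophage sum and r = -0.959 with the T and NK cell sum. High values were not limited to these lists, since r with the summed endothelial markers was 0.942 for Lgals3 and 0.864 for Lgals3bp. All 7 tested neutrophil markers had a negative log2 fold change, with a median of -0.78, and 5 were lower without overlap, beside 12.6% of all genes. With the neutrophil sum, r was 0.816 for Lgals3, 0.759 for Lgals3bp, 0.911 for Lgals8, 0.849 for Lgals9 and -0.46 for Lgals1. edgeR and DESeq2 on all libraries called 0 genes of these marker lists. The unadjusted edgeR p was under 0.05 for 5 of 10 macrophage, 4 of 10 fibroblast and 5 of 15 interferon genes tested. It was under 0.05 for 5 of 10 T and NK cell, 4 of 7 neutrophil and 0 of 4 epithelial genes. Over all genes it was so for 2112 of 13884. The part of interferon signalling, lymphocytes or neutrophils in the levels of the 5 genes was not tested.

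**Figure D3:**
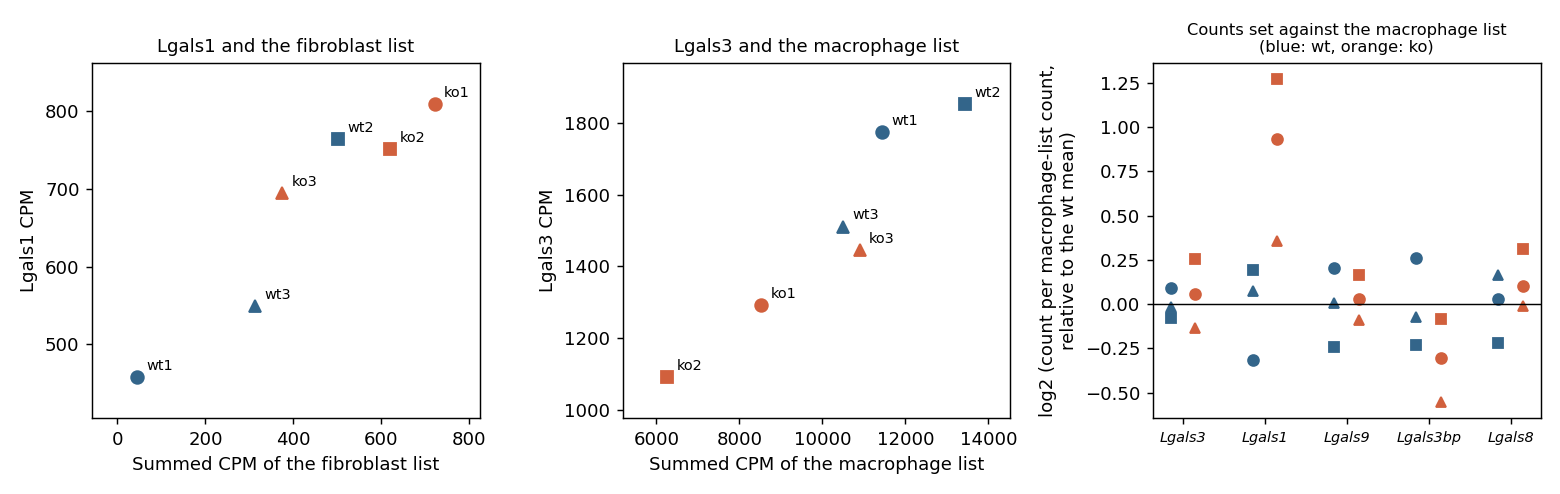
The left and middle panels plot Lgals1 CPM against the summed CPM of the fibroblast list and Lgals3 CPM against that of the macrophage list, with 1 point per library (blue wt, orange ko). The right panel plots the counts of each gene set against the macrophage list, as log2 relative to the wt mean. On that scale Lgals1 is higher in each ko library than in each wt library, and the other 4 genes overlap between the groups. The share of all genes that separate in this way on that scale was not computed.

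The remaining galectin genes were scarce. Of 7 listed, 5 were in the table and 3 had enough counts for the test. Lgalsl, which encodes a galectin-like protein not known to bind sugar, had 50, 237 and 198 counts in wt replicates 1 to 3 and 476, 491 and 290 counts in ko replicates 1 to 3, and each ko library lay above each wt library. Its log2 fold change was 1.25 (standard error 0.51), and edgeR's adjusted p was 0.328. Lgals7, a galectin of stratified epithelium, had 12 to 72 counts in wt and 37 to 92 in ko, with a log2 fold change of 0.90 (standard error 0.68, edgeR adjusted p = 0.458). Lgals4, a galectin of the gut epithelium, had 40 to 58 counts in wt and 58 to 91 in ko, with a log2 fold change of 0.36 (standard error 0.32, edgeR adjusted p = 0.523). Single libraries carried much of these estimates, since Lgals7 was at 0.49 without wt replicate 1 and at 1.97 without wt replicate 2, Lgalsl at 0.82 without wt replicate 1, and Lgals4 at 0.21 without wt replicate 2 or ko replicate 2. Lgals2 was at most 6 counts and Grifin at most 2 counts in any library, too low for the test. The median log2 fold change of the 3 tested genes was 0.90, the value of Lgals7, and edgeR called 0 of them.

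Glycoproteins that bind galectins are their counter-receptors. All 14 listed were tested, edgeR called 0 in either direction, and 3 had a higher and 11 a lower estimate in ko, with a median log2 fold change of -0.22. Havcr2, which encodes TIM-3, the receptor bound by galectin-9, was at 225 ± 20.2 CPM (SD, n = 3) in wt and 237 ± 61.9 CPM (SD, n = 3) in ko, with a log2 fold change of 0.08 (standard error 0.19, edgeR adjusted p = 0.825), and is named for its link to Lgals9 after its value was seen. The largest positive estimates were those of Lag3, a checkpoint receptor of T cells bound by galectin-3, at 1.11 (standard error 0.47, edgeR adjusted p = 0.328), and Tfrc, the transferrin receptor, at 1.00 (standard error 0.36, edgeR adjusted p = 0.328). The largest negative estimates were those of Spn, the leukocyte sialoprotein CD43, at -0.64 (standard error 0.31, edgeR adjusted p = 0.339), and Nrp1, a semaphorin co-receptor, at -0.61 (standard error 0.17, edgeR adjusted p = 0.328). Nrp1 was below every wt library in every ko library. Without wt replicate 1 the estimate of Spn was -0.19, behind that of Nrp1 at -0.48, and without ko replicate 2 that of Lag3 was 0.68.

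The 16 enzymes that build, branch or cap the sugars recognised by galectins gave 0 calls in edgeR, with 6 higher and 10 lower estimates and a median log2 fold change of -0.11. C1galt1c1, the chaperone needed by the core 1 O-glycan enzyme, was at 30.5 ± 2.62 CPM (SD, n = 3) in wt and 19.0 ± 3.39 CPM (SD, n = 3) in ko, without overlap. Its log2 fold change was -0.69 (standard error 0.17, edgeR adjusted p = 0.328). Mgat1, which opens the path to complex N-glycans, had -0.44 (standard error 0.18, edgeR adjusted p = 0.328). Mgat4a, a branching enzyme, had 0.30 (standard error 0.16, edgeR adjusted p = 0.35), and Mgat3, which adds a bisecting sugar, had 0.30 (standard error 0.81, edgeR adjusted p = 0.84) from 7 counts in wt replicate 1 and 75 to 145 elsewhere. Without wt replicate 1 the estimate was -0.22 for Mgat1 and -0.24 for Mgat3, without wt replicate 2 that of Mgat3 was 1.18, and without ko replicate 3 that of Mgat4a was 0.14.

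Among 11 tested genes that act with galectins at damaged vesicles, edgeR called 0, with 3 higher and 8 lower estimates and a median log2 fold change of -0.19. Trim16, a ubiquitin ligase that binds galectin-3, had 0.43 (standard error 0.17, edgeR adjusted p = 0.328), and Tax1bp1, an autophagy adaptor, had 0.35 (standard error 0.29, edgeR adjusted p = 0.497). Tfeb, the transcription factor of lysosome genes, had -0.70 (standard error 0.27, edgeR adjusted p = 0.328), and Gabarapl2 had -0.26 (standard error 0.13, edgeR adjusted p = 0.346). Without wt replicate 1 the estimate was 0.047 for Tax1bp1, whose count there was 4896 against 10734 to 13105 elsewhere, and -0.40 for Tfeb. Without wt replicate 3 that of Tax1bp1 was 0.54. DESeq2 on all libraries called 0 genes of these related lists. edgeR's unadjusted p was under 0.05 for 1 of 3 scarce galectin genes tested and 3 of 14 counter-receptors. It was under 0.05 for 3 of 16 sugar enzymes and 2 of 11 genes of damaged vesicles, beside 2112 of all 13884 genes. Without wt replicate 1 and ko replicate 3, DESeq2 called 6 of 44 genes of these related lists (13.6%, beside 10.6% of all genes), Lgalsl and Tfrc as higher and Nrp1, Itgam, Lamp2 and C1galt1c1 as lower in ko. Itgam, the CD11b chain, also stands in the macrophage list.

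**Figure D4:**
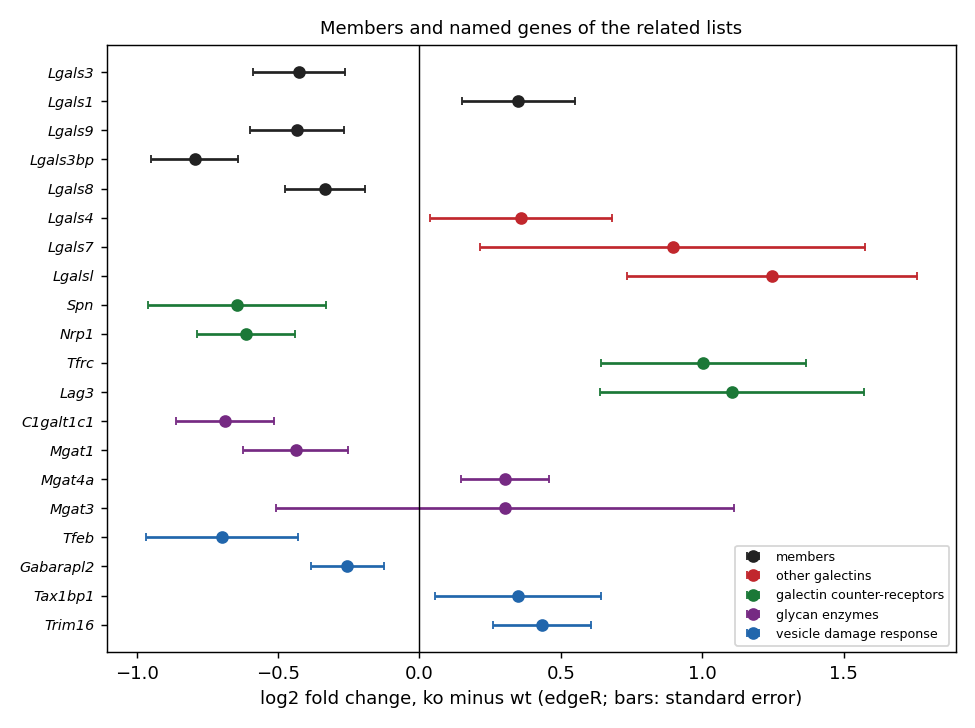
Points give the log2 fold change, ko minus wt, from edgeR for the 5 genes and the named genes of the related lists, and bars the standard error. Lgals1 and the 3 scarce galectin genes lie to the right of 0, and Lgals3, Lgals9, Lgals3bp and Lgals8 to the left.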

How the data were processed

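RNA of 6 libraries was compared, 3 labelled wt and 3 labelled ko, grouped by title. The deposited tables hold raw counts per gene, not normalized, and the authors' FPKM values, in which counts are divided by gene length and library total. The submitters' processing notes name the build mm10. The aligner, counting tool and annotation are not given in the sources used here. Fewer mice are stated for a heatmap of these data than libraries deposited per group, so p-values measure the spread between libraries, which may be partly technical.

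Counts were analysed with edgeR 4.0.16 in R 4.3.3 (filterByExpr, TMM, glmQLFit, glmQLFTest, Benjamini-Hochberg over 13884 genes, threshold 0.05), with a prior count of 2 for log2 CPM. Each standard error is the size of the estimate over the square root of F. Alternatives used DESeq2 1.42.0, limma 3.58.1 on log2 of the deposited FPKM plus 1 or plus 0.1, other scalings, no filter, a replicate block and left-out libraries. DESeq2 without wt replicate 1 and ko replicate 3, scaling to the macrophage list and non-overlap without those libraries were chosen after seeing the data. No pair of libraries within a group was a duplicate (chi-square per gene of at least 28.5, near 1 for a repeat). Members and lists were chosen with earlier results of these data known. Related genes were named by the 2 largest estimates in each direction per list. Coordinates come from GENCODE M21, matched by symbol, and promoter windows from RefSeq.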

Additional observations from a re-analysis of the deposited data

How the results depend on the processing

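The direction of the 5 members was the same in each edgeR, DESeq2 and limma fit, with a positive log2 fold change for Lgals1 and negative ones for the other 4. It changed only relative to the macrophage list, a scale made up mostly of Cd14 and Itgam and chosen after the data were examined. There the difference was 0.061 for Lgals3, 0.14 for Lgals8, 0.048 for Lgals9, -0.30 for Lgals3bp and 0.87 for Lgals1, with the median of all genes at 0.52. Without that scale, the median over all genes tested was 0.02 in edgeR and 0.16 in limma on log2 of FPKM plus 0.1. Across fits leaving out 1 library, the log2 fold change ranged from 0.19 to 0.57 for Lgals1, the lowest without wt replicate 1 and the highest without wt replicate 2. It ranged from -0.53 to -0.33 for Lgals3, from -0.91 to -0.67 for Lgals3bp, from -0.47 to -0.23 for Lgals8 and from -0.58 to -0.31 for Lgals9. edgeR called 0 genes in each of these fits. DESeq2 called 36 genes, and 1283 without wt replicate 1 and ko replicate 3, where it called 6 of the related lists, and the cause was not tested. Mgat3 changed sign without wt replicate 1 (-0.24), without wt replicate 1 and ko replicate 3 (-0.089) and with DESeq2 on those libraries (-0.13). It ranged from -0.24 to 1.18 over the fits leaving out 1 library. Over the same sets of libraries, the median r among the 4 lower genes ranged from 0.860 to 0.949, and that of Lgals1 with them from -0.855 (without wt replicate 2) to -0.385 (without wt replicate 1).

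The replicate numbers are shared names only. Deviations from the group means correlated at -0.241, 0.0605 and -0.337 between the libraries numbered 1, 2 and 3. A replicate block in edgeR called 0 genes, with 1606 at an unadjusted p under 0.05, and the log2 fold changes were 0.38 for Lgals1, -0.43 for Lgals3, -0.79 for Lgals3bp, -0.35 for Lgals8 and -0.44 for Lgals9. Counts of 2467 or more per library lay behind each member, so the spread between libraries and not depth limited these values, whereas Lgals2 and Grifin were too low to compare.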
